A study of Arabidopsis thaliana with 6 samples.

Results

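The genes described here encode expansins, xyloglucan endotransglucosylase/hydrolases (XTH) and pectin methylesterases (PME), measured in untreated Arabidopsis thaliana rosettes. They are the genes whose symbol in the platform annotation begins with EXPA, EXPB, EXLA, EXLB or XTH, or with PME followed by a number, PMEI or PMEPCRF, on a probe set paired with 1 gene. There were 29 such genes, each with 1 probe set, of 13356 genes on the 13513 probe sets paired with 1 gene. They comprised 10 alpha-expansins (EXPA), 4 beta-expansins (EXPB), 3 expansin-like A genes (EXLA), 1 expansin-like B gene (EXLB), 9 XTH genes and 2 pectin methylesterases. No symbol beginning with PMEI was found. Of 25 listed EXPA genes 10 were measured on a probe set paired with 1 gene. Of 33 listed XTH genes 10 were, 1 of them under another symbol. Below, a gene is called measured if the annotation pairs a probe set with it and with no other gene. Other genes may still have probe sets that the annotation leaves without a gene name. Shares of these subfamilies given below cover the measured genes only.

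Wild-type Col-0 rosettes and rosettes of pmr5, a mutant in the same Col-0 background, were hybridized to 1-colour Affymetrix arrays, with 3 arrays per genotype. Plants of both genotypes were 3 weeks old and had been kept at 22 °C under a 14 h photoperiod, with no treatment before harvest. The labels name the mutant without its allele and call the arrays biological replicates, without saying whether these came from separate sowings, so the spread given here is that between these samples. PMR5 is known from a mutant that resists powdery mildew and has altered pectin, and 0 probe sets were paired with it, so the mutated gene was not analysed here.

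Growing plant cells are enclosed by cellulose microfibrils tethered by xyloglucan and embedded in pectin. Expansins loosen this network without cutting it, most strongly at acid pH, while the expansin-like proteins share their fold but have no established loosening activity. XTH enzymes cut xyloglucan chains and rejoin or hydrolyse them, and pectin methylesterases remove methyl groups from homogalacturonan, which lets calcium cross-link it or exposes it to degradation.

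The deposited values were log2 signals, with median signals of 4.68 to 4.78 per array. Between 25.0% and 26.3% of probe sets on each array shared the lowest value, 2.19, at which values have no order. A signal also depends on the probes of its probe set, so signals were compared between arrays and not between genes. Of the rosette markers, 3 of 11 were measured, and RCA (Rubisco activase), LHCB4.1 and LHCB4.2 (light-harvesting proteins) lay between 14.25 and 15.24 on all 6 arrays. Of the root markers, 3 of 5 were measured, and the root hair expansins EXPA7 and EXPA18 sat at the lowest value on every array. PYK10, an ER-body glucosidase abundant in roots, lay between 3.28 and 5.86. None of the 5 flower markers was analysed here, as 0 of 5 had a probe set paired with 1 gene.

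The members divided into 16 genes with every array above a log2 signal of 3 and 13 genes with no array above it. No member had values on both sides, but the limit was chosen with earlier results of these data known. Over all 22746 probe sets, 8417 had no array above 3 and 13297 had every array above it, so most were not split there either. The 13 dim genes reached at most 2.64, and the other 16 never fell below 3.53. The dim share of 44.8% compares with 42.6% among all probe sets paired with 1 gene and 37.0% among all probe sets. A dim probe set does not show that its transcript was absent.

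The alpha-expansins with a signal above 3 were EXPA4, EXPA8, EXPA9, EXPA15 and EXPA16, 5 of 10. On all 6 arrays EXPA7, EXPA18 and EXPA21 held the lowest value. EXPA20 left it on 1 array only, Col-0 replicate 2 at 2.37, and EXPA24 on Col-0 replicates 1 and 3, both at 2.25. Among the beta-expansins EXPB1 and EXPB3 had signal, while EXPB2 and EXPB5, the latter known for a role in pollen tube growth, were at the lowest value throughout. EXLA1, EXLA2 and EXLB1 had signal. EXLA3 held 1 value of 2.21 on all 6 arrays, just above the lowest value, although EXLA3 (AT3G45960) and EXLA1 (AT3G45970) are next to each other in gene order.

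Among the XTH genes, XTH16, XTH18, XTH19 and XTH32 had signal, 4 of 9. XTH21, known for root growth, never left the lowest value. XTH26, a root hair enzyme, and XTH20 each left it on 1 array, reaching at most 2.23. XTH29 was at 2.48 on Col-0 replicate 3 and at 2.19 on the other 5 arrays. XTH33, which encodes an XTH bound to the plasma membrane, stayed between 2.54 and 2.64. Both pectin methylesterases, PME61 (AT3G59010, also called PME35, known for the strength of the inflorescence stem) and PMEPCRF (AT5G53370), had signal on every array.

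**Figure D1:**
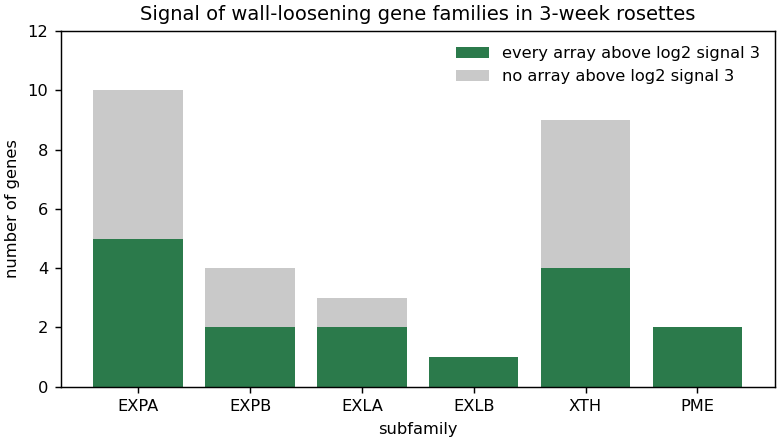
Number of genes in each subfamily (x axis) whose log2 signal was above 3 on every array (green) or on no array (grey), over 3 Col-0 and 3 pmr5 arrays. Of the 29 genes 16 were green, among them 5 of 10 EXPA and 4 of 9 XTH genes.

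The arrays of pmr5 were set against those of Col-0 to ask whether these wall-modifying genes differ in the untreated mutant. In limma, 0 of 29 members passed an adjusted p under 0.05, as did 0.00% of the 22746 probe sets (0 probe sets). At an unadjusted p under 0.05 there was 1 member, EXLA1, against 2.60% of all probe sets (591). The fit, its adjustment and these shares included probe sets with the same value on every array, which cannot pass. These were 7 of the members and 4029 of all probe sets. They also entered the estimate of spread that limma shares across probe sets. That shared estimate counted for only 0.412 degrees of freedom, so it steadied the spread of each probe set little. With 3 arrays per genotype, a p above the threshold therefore does not show that a gene was unchanged. Of the 17 members that varied and stayed above the lowest value on every array, 8 had a higher mean in pmr5 and 9 a lower one. Both shares were 50% over the 15900 probe sets of the same kind. The genotypes did not overlap in 1 of the 17 with higher values in pmr5, EXPA4, where the share over all such probe sets was 3.41%. They did not overlap in 2 of the 17 with lower values in pmr5, EXLA1 and the dim XTH33, where the share was 3.14%. With so few genes these counts do not set the members apart from the background. The median difference was 0.00 over the 29 members and -0.04 over the 17, against 0.00 over all 22746 probe sets. In bulk rosettes, fewer cells of a type and less RNA per cell cannot be told apart.

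EXLA1 had the widest separation. It read 9.16, 8.97 and 8.42 on Col-0 replicates 1 to 3 and 6.74, 7.30 and 7.37 on pmr5 replicates 1 to 3. Every pmr5 array was below every Col-0 array, by at least 1 log2 unit. The means were 8.85 ± 0.39 and 7.13 ± 0.35 (SD, n = 3), a difference of -1.71 log2 units (SE 0.285, 95% interval -2.47 to -0.95) with an adjusted p of 1 in limma over all probe sets. It was the only member at least 2-fold apart with no overlap, which held for 0.447% of those 15900 probe sets. Over all probe sets, 26 differed by at least as much in either direction, EXLA1 included, and 10 were lower in pmr5 by at least as much. Its difference was -1.93 when Col-0 replicate 3 was left out and -1.51 when pmr5 replicate 1 was, the extremes of leaving out 1 array. Over 12 alternative settings its adjusted p in limma lay between 0.433 and 1.

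The other expansin-like genes did not share this separation. EXLA2, whose loss in Arabidopsis is known to raise resistance to a necrotrophic fungus, read 4.02, 4.51 and 3.63 in Col-0 and 3.85, 3.95 and 3.84 in pmr5. Its pmr5 values all lay within the Col-0 range, with a difference of -0.17 (SE 0.25, 95% interval -0.83 to 0.48). EXLA3 had no difference to show, at 1 value near the lowest. EXLB1 read 5.24, 5.23 and 5.48 in Col-0 and 5.70, 6.15 and 5.23 in pmr5. Its replicate 3 of pmr5 gave the same reading as Col-0 replicate 2, 5.23003. The other pmr5 arrays were above every Col-0 array, giving a difference of 0.38 (SE 0.26, 95% interval -0.33 to 1.09). The value was 0.15 without pmr5 replicate 2 and 0.61 without pmr5 replicate 3. Whether EXLA1 differed from these relatives was not tested.

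Of the 5 alpha-expansins with signal, 4 had a higher mean in pmr5 and EXPA9 a lower one, and the median difference of the 5 was 0.28. Over all 10 EXPA members, the dim ones included, it was 0.00. EXPA8 read 9.26, 7.11 and 6.79 in Col-0 and 8.95, 8.21 and 8.69 in pmr5. Col-0 replicate 1 was the highest array of all and the other Col-0 arrays were the lowest, so the genotypes overlapped through that array. The difference was 0.90 (SE 0.77, 95% interval -1.16 to 2.95), and with 1 array left out it went from 0.43 (Col-0 replicate 3) to 1.67 (Col-0 replicate 1), with 0.59 when Col-0 replicate 2 was dropped.

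EXPA16 had the widest spread of any member. Its Col-0 arrays read 5.72, 6.64 and 6.45, and its pmr5 arrays 8.02, 5.16 and 7.51. In pmr5, replicates 1 and 3 were above all Col-0 arrays and replicate 2 was below all of them. The difference was 0.63 (SE 0.88, 95% interval -1.73 to 2.98), and it was 1.5 without pmr5 replicate 2 and 0.07 without pmr5 replicate 1.

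EXPA4, known together with EXPB5 for a role in pollen tube growth, was the 1 alpha-expansin without overlap. It read 6.76, 6.95 and 6.95 in Col-0 and 7.42, 6.97 and 7.12 in pmr5. The gap between the nearest arrays was narrow, and the difference of 0.28 (SE 0.14) had a 95% interval of -0.09 to 0.65 and was 0.16 without pmr5 replicate 1. EXPA15 read 5.12, 5.13 and 5.24 in Col-0 and 5.28, 5.24 and 5.31 in pmr5. Its pooled spread within a genotype, 0.05, was the smallest of the 16 members with signal, and its difference of 0.11 (SE 0.04) had a 95% interval of -0.002 to 0.22. EXPA9 ranged from 4.69 to 4.70 in Col-0 and from 4.36 to 4.69 in pmr5, a difference of -0.15 (SE 0.09), or -0.06 without pmr5 replicate 1.

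The beta-expansins with signal differed in opposite directions. EXPB1 read 6.79, 6.74 and 7.55 in Col-0 and 6.10, 6.83 and 5.95 in pmr5. Replicates 1 and 3 of pmr5 were below every Col-0 array and replicate 2 was among them, which gave -0.73 (SE 0.36, 95% interval -1.70 to 0.23). Without Col-0 replicate 3 it was -0.47, and without pmr5 replicate 2 it was -1.0. EXPB3 ranged from 5.30 to 6.07 in Col-0 and from 5.64 to 6.43 in pmr5, with overlap and a difference of 0.38 (SE 0.34), or 0.64 with Col-0 replicate 3 dropped and 0.14 with pmr5 replicate 2 dropped.

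XTH16 and XTH32 had lower means in pmr5, and XTH18 and XTH19 higher ones. XTH32 belongs with XTH31 to a clade whose known members favour hydrolysis of xyloglucan. It read 10.08, 9.48 and 9.85 in Col-0 and 8.74, 9.98 and 8.69 in pmr5. Replicates 1 and 3 of pmr5 were below every Col-0 array, while replicate 2 was near the highest of them. The difference was -0.66 (SE 0.43, 95% interval -1.83 to 0.50), and with 1 array left out it went from -1.09 (pmr5 replicate 2) to -0.44 (pmr5 replicate 3).

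XTH16 read 6.72, 6.51 and 5.75 in Col-0 and 5.56, 6.17 and 5.19 in pmr5. Again pmr5 replicates 1 and 3 were the lowest of the 6 arrays and replicate 2 lay inside the Col-0 range, with a difference of -0.69 (SE 0.39, 95% interval -1.73 to 0.36). XTH18 (AT4G30280) and XTH19 (AT4G30290), both known from root tissue, are adjacent in gene order and each read highest on pmr5 replicate 3. That array was at 5.36 for XTH18, where the other 5 arrays ranged from 3.53 to 4.24. For XTH19 it was at 6.06, where the other 5 ranged from 4.54 to 5.49. The differences were 0.55 (SE 0.47) and 0.07 (SE 0.46), and without pmr5 replicate 3 they were 0.105 and -0.34. XTH33 differed by -0.04 (SE 0.02) within a range of values where only part of a difference can show. The median difference was -0.02 over the 9 XTH members and -0.04 over the 5 that never touched the lowest value.

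Both pectin methylesterases had lower means in pmr5, with overlap in each. PMEPCRF read 8.62, 9.01 and 9.42 in Col-0 and 8.46, 9.32 and 8.43 in pmr5. Replicates 1 and 3 of pmr5 were below every Col-0 array and replicate 2 was near the highest, which gave -0.28 (SE 0.35, 95% interval -1.23 to 0.66). With 1 array left out this went from -0.57 (pmr5 replicate 2) to -0.08 (Col-0 replicate 3). PME61 read 6.52, 5.63 and 6.36 in Col-0 and 5.90, 5.69 and 5.69 in pmr5. Col-0 replicate 2 was below all pmr5 arrays and the other Col-0 arrays were above them, with a difference of -0.41 (SE 0.27, 95% interval -1.13 to 0.31). It went from -0.68 (Col-0 replicate 2 left out) to -0.23 (Col-0 replicate 1 left out), and was -0.13 with array weights. The median of the 2 PME members was -0.35, and -0.48 to -0.20 with 1 array left out, the latter without Col-0 replicate 3.

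**Figure D2:**
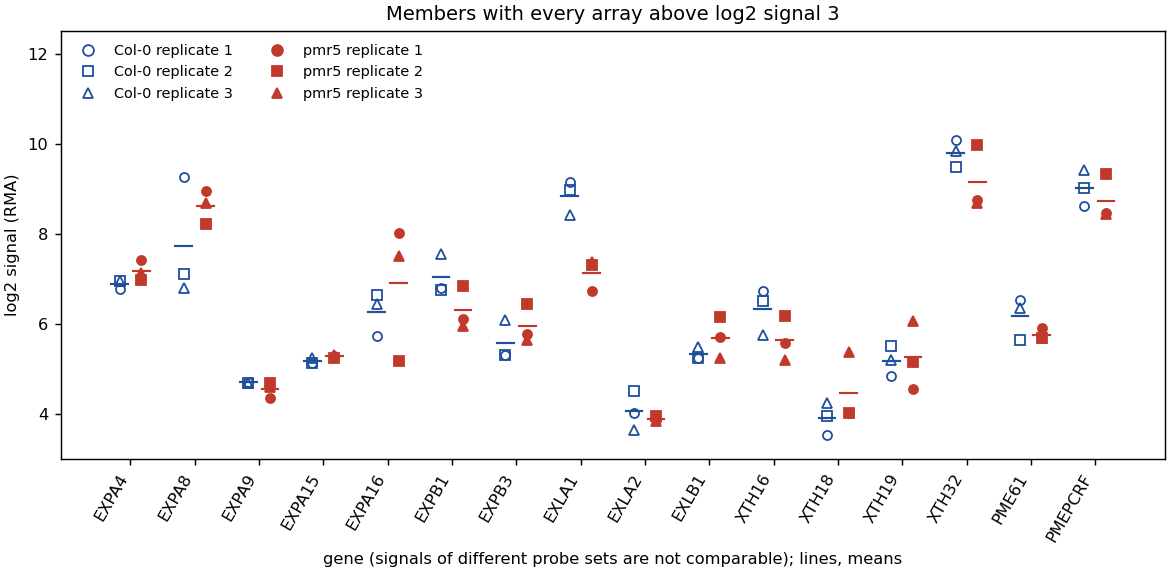
Log2 signal (y axis) of the 16 members with every array above 3, for Col-0 (blue open symbols) and pmr5 (red filled symbols), 1 symbol shape per replicate number, with lines at the means of 3 arrays. EXLA1 shows a wide gap between the genotypes, and pmr5 replicate 2 (squares) lies apart from the other pmr5 arrays in XTH32, PMEPCRF and EXPA16.

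**Figure D3:**
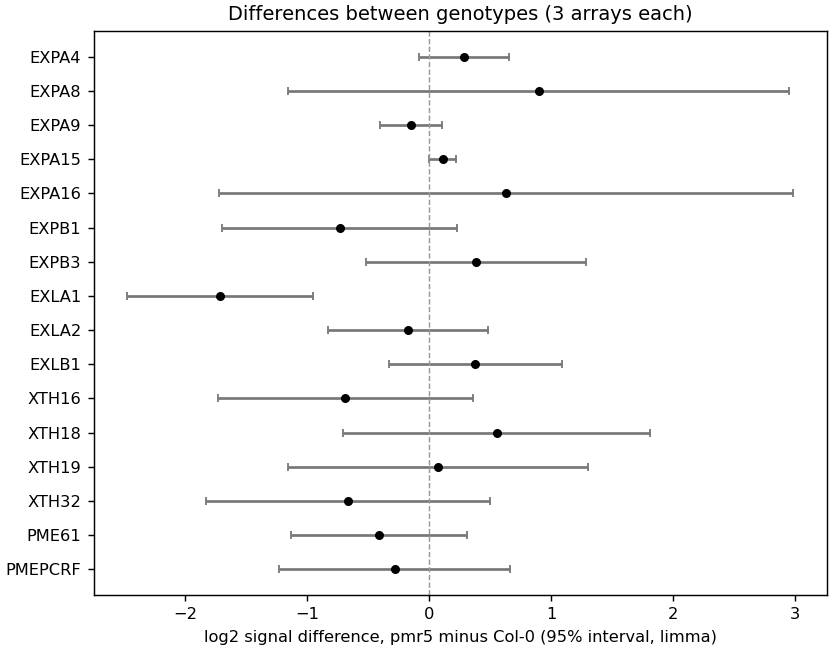
Difference in log2 signal, pmr5 minus Col-0 (x axis), with its 95% interval from limma, for the 16 members with every array above 3. The interval of EXLA1, from -2.47 to -0.95, lies apart from 0, and the other 15 include 0. Intervals are not adjusted for the number of probe sets tested.

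The replicates of a genotype disagreed widely for these genes. The median within-genotype SD, pooled over both genotypes, was 0.44 log2 units over the 16 members with signal and 0.24 over the 13297 probe sets with every array above 3. Of the 16 members, 13 were above that overall median, and 9 (56.2%) were above the upper quartile of 0.38, which 25.0% of all such probe sets exceed. EXPA16 and EXPA8 had the largest values among the members, at 1.13 and 0.99. The 3 members below the overall median were EXPA4, EXPA9 and EXPA15, all alpha-expansins. The small spread of EXPA4 and EXPA9 rests partly on equal values. Col-0 replicates 2 and 3 both read 6.94987 for EXPA4 and 4.69005 for EXPA9, and pmr5 replicate 2 also read 4.69005 for EXPA9. Ties were not confined to these genes. PME61 read 5.68994 on pmr5 replicates 2 and 3, and EXLB1 read 5.23003 on Col-0 replicate 2 and pmr5 replicate 3. The spreads and differences of these genes rest partly on such values. Where such ties came from was not tested.

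Much of this spread in pmr5 lay between replicate 2 and the other arrays of the genotype. Replicate 2 was the pmr5 array farthest from the mean of the other ones in 10 of 17 varying members (58.8%), and in 52.8% of all probe sets of that kind, so the members' share was near the background. Against the Col-0 mean, XTH32 was at -1.06, 0.18 and -1.11 on pmr5 replicates 1 to 3. PMEPCRF was at -0.56, 0.30 and -0.59. EXPA16 had the opposite order, at 1.75, -1.11 and 1.24. In XTH18 replicate 3 stood apart instead, at 0.11, 0.10 and 1.45. EXLA1 was low on all pmr5 arrays, at -2.11, -1.55 and -1.47.

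RNA integrity can be read from control transcripts for actin, GAPDH and ubiquitin, as their signal near the 3' end minus that near the 5' end. Its mean was 0.95, 1.11 and 0.84 on pmr5 replicates 1 to 3 and 0.94, 0.90 and 1.103 on Col-0 replicates 1 to 3. In another series of such controls it was 3.09, 3.29 and 3.09 in pmr5 and 3.30, 3.19 and 3.18 in Col-0. In both series replicate 2 was the highest pmr5 array. A Col-0 array was at about its level, replicate 3 in the first series and replicate 1 in the other. The series thus ordered the Col-0 arrays differently. PYK10 was at 4.76, 3.28 and 5.86 in pmr5 and at 4.08, 3.43 and 5.20 in Col-0. LHCB4.2 was at 14.90, 14.48 and 14.85 in pmr5 and at 14.61, 14.49 and 14.62 in Col-0. For both genes replicate 2 was the lowest array of each genotype. The same held for LHCB4.1, while for RCA replicate 2 was the middle array of each genotype. The part of these measures in the values of the members was not tested.

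**Figure D4:**
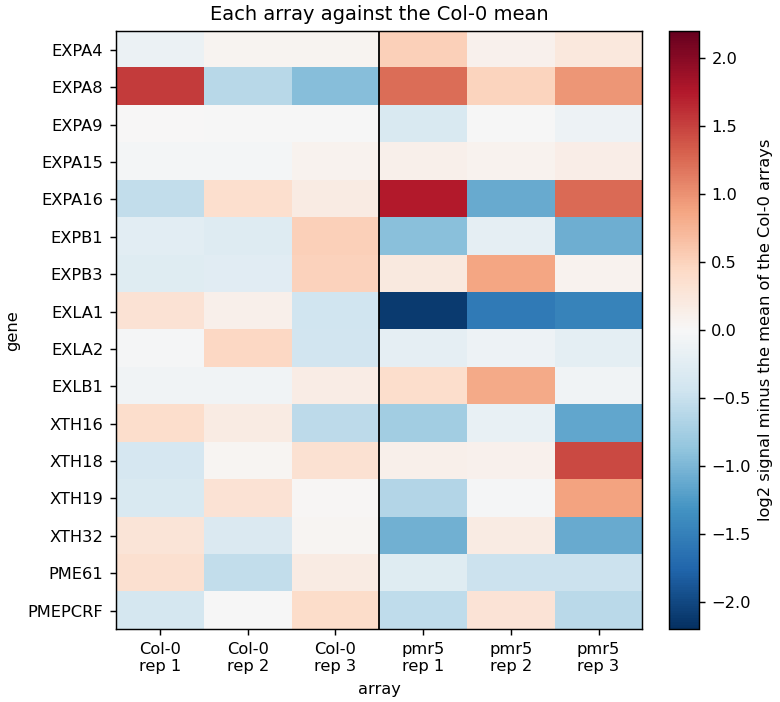
Log2 signal of each array minus the mean of the 3 Col-0 arrays (colour, red above and blue below) for the 16 members with every array above 3 (rows). EXLA1 is blue on all pmr5 arrays, while among the pmr5 arrays XTH32 and PMEPCRF are blue on replicates 1 and 3 and pale red on replicate 2.

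Family members under other symbols gave no shared direction either. EXGT-A3 (AT2G01850), the gene of XTH27 and known for leaf vein development, read 11.42, 12.39 and 12.12 in Col-0 and 11.74, 12.06 and 11.68 in pmr5, a difference of -0.15 (SE 0.30). ATPMEPCRB (AT4G02330), also called PME41 and known for chilling tolerance, read 5.78, 9.0 and 7.96 in Col-0 and 7.71, 7.18 and 8.38 in pmr5. Its Col-0 arrays spanned 3.22 log2 units around the pmr5 values, and the difference was 0.17 (SE 0.96). The pectin methylesterase genes ATPMEPCRD and AT4G02300 (PME39) stayed near or at the lowest value, with at most 2.58. With these genes included, the median of the pectin methylesterases was 0.00 in place of -0.35. That 0.00 is the value of AT4G02300, which held the lowest value on every array and could show no difference. The probe set shared by EXP26 and EXPA22 and the one shared by EXPA23 and EXPA25, alpha-expansins, could not be assigned to 1 gene and reached at most 2.40.

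The lists of other wall genes were thinly covered by probe sets paired with 1 gene. The annotation named no gene for 8730 of the 22746 probe sets, which may include other listed genes. Of 12 cellulose synthesis genes 1 was measured. This was COB, a membrane-anchored protein needed for oriented cellulose, with a difference of -0.31 (SE 0.30). Of 8 xyloglucan synthesis and trimming genes 1 was measured, CSLC04, which makes the glucan backbone. It read 7.90, 7.79 and 7.33 in Col-0 and 7.33, 7.23 and 7.60 in pmr5, with overlap and a difference of -0.28 (SE 0.20). Of 7 pectin synthesis genes GAUT15 was measured, at -0.18 (SE 0.16). Of 9 pectin degradation genes ADPG1 was measured, a polygalacturonase, which stayed at or below 2.32 on all arrays. None of the 3 proton pump genes was analysed here, as 0 of 3 had a probe set paired with 1 gene. In limma 0 of these 4 genes passed the threshold over all probe sets in either direction.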

How the data were processed

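The submitters' processing notes name RMA and the affy package for the deposited log2 signals, and no version is given in the sources used here. Nor is the step that set the shared lowest value. The values were tested without further normalization. Of 22810 probe sets, 64 Affymetrix controls were left out of the tests. Names came from the platform annotation, in which 503 probe sets had several genes and 8730 none. All 29 members matched the RefSeq table of TAIR10.1, which was used only for locus codes, synonyms and gene order. Members, lists and the limit of 3 on the log2 signal were chosen with earlier results of these data known.

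The fit was pmr5 minus Col-0 in R 4.3.3 with limma 3.58.1 (lmFit, eBayes), 2-sided, with Benjamini-Hochberg adjustment over all 22746 probe sets. Values on each array were given for members with a mean above 6, with no overlap, or with the largest difference of their subfamily, and for others the text turns on. A value counted as lowest if it equalled the table's minimum. The fit was checked on simulated data. The number of arrays limits the precision.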

Additional observations from a re-analysis of the deposited data

How the results depend on the processing

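In limma, 0 members passed the adjusted threshold in any setting, with any array left out, with the replicate number as a block (0 probe sets as well), and with family members under other symbols included. The deviations of same-numbered arrays from their genotype means correlated at 0.12, -0.28 and 0.20. Col-0 replicates 1 and 3 and pmr5 replicate 3 correlated best with their own number, and the other arrays did not. So few values cannot tell whether same-numbered samples shared a sowing or a batch. With 1 array left out, between 0 and 13 probe sets passed (2 when Col-0 replicate 3 or pmr5 replicate 1 was dropped, 4 for pmr5 replicate 3 and 13 for pmr5 replicate 2), and 1 passed among probe sets with a mean above 6. Of the 17 varying members, 15 kept their direction in every setting, and EXLA2 (-0.387 to 0.0543) and XTH19 (-0.34 to 0.43) did not when 1 array was left out. The replicate block, the intensity trend and the limit of 6 on the mean cannot change a difference, and the other settings reuse the same arrays. The share keeping direction over all probe sets was not computed, so the 15 have no background. Restricted to means above 6, EXLA, EXPB and XTH each keep 1 gene, so their values are those of EXLA1 (-1.71), EXPB1 (-0.73) and XTH32 (-0.66), and the median of the 3 EXPA genes was 0.63. Among members varying above the lowest value, a setting added after the data were seen, it was -0.94 for EXLA, 0.28 for EXPA and -0.0446 for XTH. The XTH median went from -0.0541 to 0.00 with 1 array left out and was -0.0555 with arrays centred on their medians. The PME median was 0.00 with members under other symbols, which is the value of AT4G02300, at the lowest value on every array. Each member had 1 probe set, so using all probe sets changed no value.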
